A study of Homo sapiens with 2 samples.

Results

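The genes described here were on in wild-type (WT) HEK293 cells and near silent in a PERK-deficient line (PERK-KO) by their deposited values. They were 17 rows carrying 16 gene names, of 25277 rows in the deposited tables. A row was taken when its FPKM (fragments scaled to transcript length and to the library's mapped fragments) was at least 2 in WT and under 1 in PERK-KO, and when the lower confidence limit deposited for WT lay above the upper limit deposited for PERK-KO. Small RNA genes, histone, HOX, protocadherin, ZNF and LINC symbols were left out, which removed 7 of the 24 rows that passed on values. The rule used the values of both libraries, so every difference between WT and PERK-KO given here for these rows describes how they were chosen, and none was tested.

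The study asked how PERK, a kinase of the endoplasmic reticulum (ER) membrane, bears on mitochondria, and sequenced 1 poly(A) RNA library of WT and 1 of PERK-KO HEK293 cells. HEK293 is a line derived from human embryonic kidney with kidney and neuronal features. Both cultures were at passage 15-20 and were held for 12 h in OXPHOS medium, which lacks glucose and supplies galactose and pyruvate, so that the cells depended on respiration for ATP. The PERK-KO lines were made with CRISPR/Cas9 from single seeded cells, and which clone was sequenced is not given in the sources used here. With 1 library per genotype, the loss of PERK, the history of a clone and the library itself cannot be told apart, and there is no replicate check on any difference. The deposited limits cover the uncertainty of an estimate within 1 library.

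PERK, encoded by EIF2AK3, is one of the sensors of unfolded proteins in the ER lumen. When active it phosphorylates the translation factor eIF2α, which slows protein synthesis and at the same time favours translation of ATF4, a transcription factor for amino acid and redox genes. The rows described here are not a known pathway. They join secreted, membrane and metabolic genes of several tissues with noncoding RNAs and with loci where several annotated transcripts share the same exons.

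The targeted gene itself was at 5.61 FPKM (limits 5.11 to 6.12) in WT and 3.89 FPKM (3.44 to 4.34) in PERK-KO. Its mRNA was thus lower but present. The lesion in the sequenced line is not given in the sources used here, so this level does not check the genotype. Of 10 genes taken as marks of HEK293, 5 reached 1 FPKM in the library labelled WT and 8 in the library labelled PERK-KO, and none was at 0 in either. The exceptions in WT included IRS4, the insulin receptor substrate abundant in this line, at 0.121 FPKM in WT and 27.1 FPKM in PERK-KO, and the neurofilament genes NEFM, at 0.662 and 5.21 FPKM, and INA, at 0.458 and 4.13 FPKM. Others of the list were lower in PERK-KO with limits apart: the neurofilament gene NEFL, at 44.9 and 33.4 FPKM, LHX1, at 4.65 and 2.88 FPKM, CDH2, at 23.5 and 21.3 FPKM, and VIM, at 418 and 378 FPKM. The kidney gene PAX8 was near 0 in both libraries. Of 14 markers of fibroblasts, blood, liver and other epithelia, 2 reached 1 FPKM in either library, COL1A1 and COL3A1. The summed levels of the 14 were 11.4 FPKM in WT and 8.75 FPKM in PERK-KO, and ALB, HBB and CD3E were listed at 0 in both. The part of these differences between the lines in the values that follow was not tested. In bulk RNA, fewer expressing cells and less RNA per cell cannot be told apart.

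The 17 rows were 0.144% of the 11822 rows with at least 2 FPKM in WT that could have met the rule, and 0.0757% of the 22450 rows outside the symbols left out. The mirrored rule, near silent in WT and on in PERK-KO, was met by 38 rows, or 0.319% of 11909. Across the 14594 rows that reached 1 FPKM in either library, the limits were apart with PERK-KO lower in 18.7% and with PERK-KO higher in 26.1%. Among rows of the members' own range in WT, from 2 to below 10 FPKM, 7.57% were lower with limits apart. The median log2 ratio of the 13792 rows at 1 FPKM or more in both libraries was 0.04.

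**Figure D1:**
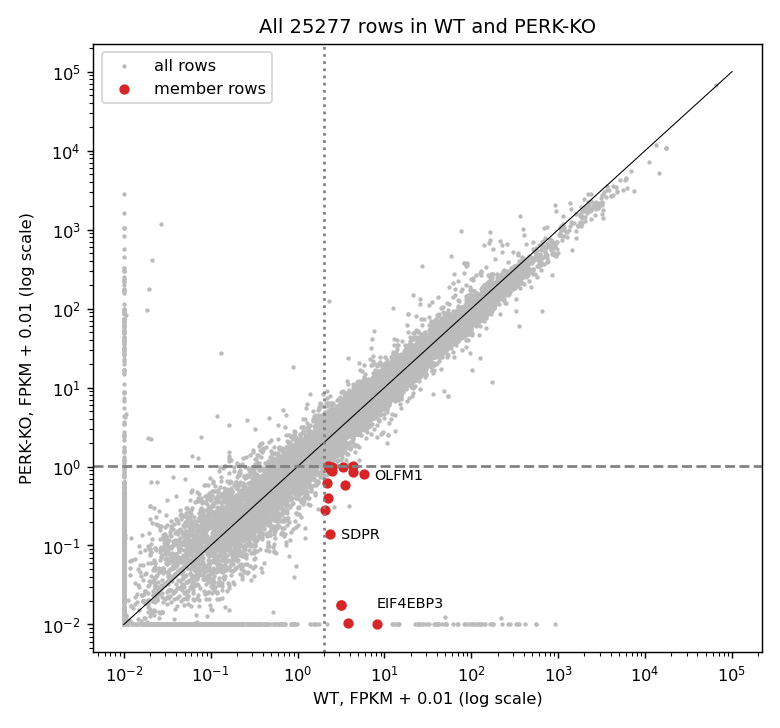
WT (x axis) against PERK-KO (y axis) for every row, as FPKM + 0.01 on log scales, with 1 library per genotype. Red points are the 17 member rows, right of the dotted line at 2 FPKM and below the dashed line at 1 FPKM. Grey points in the same corner carried symbols that were left out or had overlapping limits.

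The members were low in WT. Their median was 3.14 FPKM in WT and 0.610 FPKM in PERK-KO, against a WT median of 12.5 FPKM over the other rows with at least 2 FPKM. Of the 17 rows, 15 were under 5 FPKM in WT and 8 were under 3 FPKM. They lay on 11 chromosomes, and 14 were protein coding while 3 were long noncoding RNAs. In 4 rows the PERK-KO estimate was worth less than 1 fragment.

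The members fell into 2 kinds. Of the 17 rows, 10 overlapped no other row with a value: OLFM1, SDPR, CGA, AP1M2, SLC27A5, SMPX, HSPB9, C9orf24, LRRC69 and IDH1-AS1. The other 7 rows overlapped at least 1 row with a value: EIF4EBP3, ATP5J2-PTCD1, TGIF2-C20orf24, SERF1A in 2 copies, LOC100507547 and C1orf213. With LRRC69, whose only overlapping row was a silent microRNA gene, 8 of 17 member rows (47.1%) overlapped another row, against 25.8% of the 11805 other rows with at least 2 FPKM in WT.

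The width of the deposited limits was read as the number of fragments behind a value. The worth of a fragment was taken from 1198 rows with a single start site. They were picked because this reading gave whole numbers, within 0.05 of a fragment, in both libraries. The share of rows that did so is not given, so they do not check the reading. Over them, the median FPKM worth of a fragment in PERK-KO was 1.14 times that in WT. For 8 member rows the fragment numbers matched this worth within a relative tolerance of 0.05, with 17 to 146 fragments in WT and 2 to 38 in PERK-KO. For these, the numbers were rounded to whole fragments, and only SDPR and HSPB9 were whole within 0.05 in both libraries. An exact conditional binomial (Clopper-Pearson, 95%) interval of the fold is given from the rounded numbers. It covers counting error only, and not how reads of shared exons were divided. For the remaining rows the deposited limits are given.

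Among the genes of the cell surface and secretory route, SDPR had the largest fold of the 13 rows with at least 1 fragment in PERK-KO. SDPR, now CAVIN2, encodes a coat protein of caveolae, the flask-shaped pits of the plasma membrane, and helps to bend their membrane. It lies at chr2:192699032-192712006 on the minus strand of GRCh37, the build of all file coordinates here. SDPR was at 2.37 FPKM (1.98 to 2.76) in WT and 0.130 FPKM (0.0317 to 0.228) in PERK-KO, which was 146 fragments against 7. This was an 18.3-fold lower value (interval 8.65 to 46.2). Its GRCh38.p14 promoter in RefSeq, chr2:191847039-191847338 on the minus strand, is shown as the start region of that gene. It covers 250 bases before to 50 bases after the start and held none of the 6 motifs searched, so it has no capitals.
SDPR promoter: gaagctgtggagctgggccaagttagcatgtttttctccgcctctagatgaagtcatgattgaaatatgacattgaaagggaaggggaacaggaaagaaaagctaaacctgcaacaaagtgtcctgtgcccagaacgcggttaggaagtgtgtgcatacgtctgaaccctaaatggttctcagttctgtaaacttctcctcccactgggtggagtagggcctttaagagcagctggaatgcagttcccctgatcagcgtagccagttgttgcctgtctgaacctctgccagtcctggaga

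The other caveola genes moved less. CAV1, the main structural caveolin, was at 21.3 FPKM in WT and 12.6 FPKM in PERK-KO, and CAV2, its partner, at 10.8 and 6.30 FPKM. PTRF, or cavin 1, which every caveola coat needs, was at 58.5 and 39.6 FPKM. All 3 were lower in PERK-KO with limits apart. PRKCDBP, or cavin 3, at 39.3 and 34.1 FPKM, and MURC, the muscle cavin, at 1.99 and 2.07 FPKM, had overlapping limits, and CAV3 was listed at 0 in both. Of the 5 other caveola genes on in either library, 3 were lower with limits apart and none was higher. The median log2 ratio of the 5 was -0.56, against -4.19 for SDPR.

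OLFM1 encodes olfactomedin 1, a secreted glycoprotein best known from brain. The gene, at chr9:137967089-138013030 on the plus strand, was at 5.75 FPKM (4.87 to 6.62) in WT and 0.783 FPKM (0.494 to 1.07) in PERK-KO. The value in PERK-KO was 7.34-fold lower, and the WT lower limit was 4.55 times the PERK-KO upper limit. OLFM1 has several start sites, and its fragment numbers did not match the worth of a fragment, so no counting interval is given. Of its relatives, OLFM2 was at 3.61 FPKM (2.95 to 4.27) in WT and 1.94 FPKM (1.42 to 2.46) in PERK-KO, lower with limits apart, and OLFM3 and OLFM4 were listed at 0 in both.

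CGA encodes the alpha subunit that the glycoprotein hormones of pituitary and placenta share, each with a beta subunit of its own. It lies at chr6:87795216-87804865 on the minus strand. CGA was at 3.34 FPKM (2.22 to 4.46) in WT and 0.969 FPKM (0.321 to 1.62) in PERK-KO, or 36 against 9 fragments, 3.44-fold lower (interval 1.64 to 8.17). None of 9 beta subunit rows, of chorionic gonadotropin, LHB, FSHB and TSHB, reached 1 FPKM in either library. The alpha subunit was thus on in WT without a beta subunit at that level.

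The CGA promoter is shown because it held 2 copies of TGACGTCA, the palindromic cAMP response element for which this promoter is known, and a TATA box, TATAAA. The first bases of these motifs, in capitals, were 142, 124 and 29 bases before the start. It is chr6:87095057-87095356 on the minus strand of GRCh38.p14.
CGA promoter: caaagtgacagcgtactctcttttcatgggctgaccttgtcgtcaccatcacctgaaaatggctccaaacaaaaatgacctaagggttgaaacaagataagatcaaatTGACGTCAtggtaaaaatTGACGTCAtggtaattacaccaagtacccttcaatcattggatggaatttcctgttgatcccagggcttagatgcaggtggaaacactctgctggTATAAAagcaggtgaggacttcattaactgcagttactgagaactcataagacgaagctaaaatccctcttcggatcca
TGACGTCA was found in this 1 of the 17 member promoters in RefSeq, which belong to 13 of the 16 genes, and in 1.85% of all 35116 promoters of that length, on either strand. TATAAA was found in 2 of 17, against 11.5% of all promoters. CACGTG, the E-box, was found in 1 of 17, against 7.26%. CCGGAAG, bound by GABP, was found in 0 of 17, against 10.3%. TGATGCAAT and TGATGAAAC, forms of the C/EBP-ATF response element, were found in 0 of 17, against 0.236% and 0.225%. These matches describe letters and not bound sites. With 17 promoters, some of them of the same gene, such counts, among them a count of 0, say little about any motif. The member promoters had a median GC content of 62.7% and a median observed over expected CpG ratio of 0.650, against 58.7% and 0.579 for all promoters.

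AP1M2 encodes μ1B, the epithelial medium subunit of the AP-1 clathrin adaptor, which sorts membrane proteins to the basolateral surface. Its locus is chr19:10683347-10697991 on the minus strand. AP1M2 was at 2.33 FPKM (1.78 to 2.89) in WT and 0.931 FPKM (0.559 to 1.30) in PERK-KO, or 72 against 25 fragments, 2.51-fold lower (interval 1.58 to 4.15). AP1M1, the medium subunit of most cells, was at 41.2 FPKM in WT and 41.7 FPKM in PERK-KO with overlapping limits. Of the other AP-1 subunits, the large subunits AP1G1, at 9.36 and 13.1 FPKM, and AP1G2, at 11.0 and 15.3 FPKM, were higher with limits apart, and AP1B1 had overlapping limits. The small subunits AP1S1, AP1S2 and AP1S3 were lower with limits apart, by 1.38-fold, 1.25-fold and 1.17-fold. Levels of μ1A were far above those of μ1B on the FPKM scale in both libraries.

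SLC27A5 was the member of fatty acid metabolism. It encodes FATP5, a fatty acid transport protein that also activates bile acids and is known from liver, and it lies at chr19:59009700-59023432 on the minus strand. SLC27A5 was at 2.22 FPKM (1.77 to 2.67) in WT and 0.993 FPKM (0.670 to 1.32) in PERK-KO, or 96 against 38 fragments, 2.24-fold lower (interval 1.50 to 3.31). This was the smallest fold among the 10 rows that overlapped no other row with a value. In its family, SLC27A3, at 5.67 and 3.73 FPKM, and SLC27A4, at 31.5 and 22.6 FPKM, were lower with limits apart. SLC27A1, SLC27A2 and SLC27A6 had overlapping limits.

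SMPX and HSPB9 are genes of specialised cells. SMPX, a small protein of striated muscle that is also needed in the inner ear, lies at chrX:21724090-21776278 on the minus strand. It was at 2.16 FPKM (1.37 to 2.96) in WT and 0.610 FPKM (0.150 to 1.07) in PERK-KO, or 29 against 7 fragments, 3.55-fold lower (interval 1.51 to 9.50). HSPB9, a small heat shock protein known from testis, is a single exon gene at chr17:40274756-40275371 on the plus strand. It was at 2.04 FPKM (1.05 to 3.02) in WT and 0.273 FPKM (0 to 0.660) in PERK-KO, or 17 against 2 fragments, a ratio of 7.45 (interval 1.76 to 66.3). The PERK-KO value of HSPB9 was the thinnest of those with a counting interval. HSPB1, the most abundant small heat shock gene here, was at 360 FPKM in WT and 181 FPKM in PERK-KO, lower with limits apart, whereas HSPB8, at 16.6 and 18.3 FPKM, and CRYAB, at 0.203 and 1.04 FPKM, had overlapping limits.

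LRRC69 and C9orf24 are less well characterised. LRRC69, a leucine-rich repeat gene at chr8:92114847-92231464 on the plus strand, was at 2.47 FPKM (1.81 to 3.14) in WT and 0.858 FPKM (0.442 to 1.27) in PERK-KO, or 55 against 17 fragments, 2.89-fold lower (interval 1.65 to 5.30). C9orf24, now SPMIP6, encodes a protein of sperm microtubules and lies at chr9:34379017-34397849 on the minus strand. It was at 2.23 FPKM (1.04 to 3.41) in WT and 0.386 FPKM (0 to 0.981) in PERK-KO. Its limits were the closest of all members, and its PERK-KO value was worth under 3 fragments. Its fragment numbers did not match the worth of a fragment, so no counting interval could be set beside a fold. Its ratio is given only where it is the median of the members.

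IDH1-AS1, a long noncoding RNA, starts 151 bases from IDH1, the cytosolic isocitrate dehydrogenase, and is read from the opposite strand at chr2:209119957-209120918. It was at 4.35 FPKM (2.61 to 6.10) in WT and 0.992 FPKM (0.0163 to 1.97) in PERK-KO, 4.39-fold lower, and the WT lower limit was 1.32 times the PERK-KO upper limit. IDH1 was at 20.8 FPKM in WT and 15.4 FPKM in PERK-KO, also lower with limits apart. Whether the counting used strand is not given in the sources used here, and 13.7% of the exonic bases of IDH1-AS1 in GENCODE 44 lie in exons of another gene on the other strand.

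Over these 10 rows, WT values ran from 2.04 to 5.75 FPKM and PERK-KO values from 0.130 to 0.993 FPKM. Their median log2 ratio was -1.98, or 3.95-fold lower. Over all 13 rows with at least 1 fragment in PERK-KO the median log2 ratio was -2.13, and over all 17 rows, with the 4 rows under 1 fragment ranked lowest, it was -2.53. The ratio of C9orf24 enters these medians, and the median of -2.53 over all 17 rows is that ratio itself. The PERK-KO value of C9orf24 was worth under 3 fragments, and its fragment numbers did not match the worth of a fragment. All 8 counting intervals of the fold lay above 1. The rule required limits apart and the intervals came from the same limits, so this was largely fixed by the selection and adds no support.

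The 26 other genes of the members' families that reached 1 FPKM in either library moved in both directions. PERK-KO was lower with limits apart in 11 (42.3%), higher in 5 (19.2%) and overlapping in 10, against 18.7% lower and 26.1% higher over all rows at that level, and their median log2 ratio was -0.18. The families were picked after the members were known.

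The 7 remaining rows are read beside the rows that share their sequence. EIF4EBP3 had the highest WT value of all members. It encodes a 4E-BP, an inhibitor that binds the cap-binding protein eIF4E and holds back translation, and lies at chr5:139927251-139929163 on the plus strand. EIF4EBP3 was at 8.15 FPKM (6.09 to 10.2) in WT and was listed at 3.71e-55 FPKM, in effect 0, with an upper limit of 0.231 FPKM in PERK-KO. Its last exons are also those of ANKHD1-EIF4EBP3, a readthrough transcript that begins in the upstream gene ANKHD1, and 73.2% of its exonic bases are shared on the same strand.

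The readthrough moved the other way. ANKHD1-EIF4EBP3 was at 2.19 FPKM (1.84 to 2.54) in WT and 8.95 FPKM (8.19 to 9.70) in PERK-KO, higher with limits apart. The sum of both rows was 10.3 FPKM in WT and 8.95 FPKM in PERK-KO, a ratio of 0.865. EIF4EBP3 made up 78.8% of that sum in WT. ANKHD1 was at 22.6 FPKM in WT and 21.3 FPKM in PERK-KO. The 2 transcripts enter the same exon from different ones, so only reads over the junction or in the exons before it tell them apart, and how the reads of shared exons were divided was not tested.

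The junctions in GRCh37 are shown because they are where the transcripts differ, with the 15 bases of the exon before in lower case and the 15 of the shared exon in capitals. The EIF4EBP3 junction joins base 139927425 to 139928491 of chr5, from exon 1 to exon 2 of 3. The readthrough junction joins base 139921866 to the same 139928491, from exon 34 to exon 35 of 36.
EIF4EBP3 exon junction: ccactacccccggagGCACCAGGATCATCT
ANKHD1-EIF4EBP3 exon junction: ctctcctaaccagagGCACCAGGATCATCT

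The EIF4EBP3 promoter, chr5:140547412-140547711 on the plus strand of GRCh38.p14, is shown because the gene's own start is what separates it from the readthrough. Capitals mark TATAAA, whose first base is 236 bases before the start, and the E-box CACGTG, 13 bases before it.
EIF4EBP3 promoter: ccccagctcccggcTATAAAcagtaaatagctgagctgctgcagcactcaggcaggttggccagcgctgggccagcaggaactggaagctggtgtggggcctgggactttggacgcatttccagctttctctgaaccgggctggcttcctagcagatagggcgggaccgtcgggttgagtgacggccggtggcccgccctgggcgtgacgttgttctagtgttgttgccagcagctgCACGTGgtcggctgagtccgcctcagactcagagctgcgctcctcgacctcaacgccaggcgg

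The other genes of this step of translation were on in both libraries. EIF4EBP1, the most abundant 4E-BP here, was at 170 FPKM in WT and 206 FPKM in PERK-KO, and EIF4EBP2 at 36.7 and 40.8 FPKM. EIF4E itself was at 21.5 and 25.2 FPKM, and these 3 were higher in PERK-KO with limits apart. EIF4E2, a weaker cap-binding relative, was lower, at 84.0 and 58.9 FPKM, and EIF4E3 had overlapping limits.

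ATP5J2-PTCD1 is a readthrough of ATP5J2, a subunit of mitochondrial ATP synthase, into PTCD1, an RNA-binding protein of mitochondria. It lies at chr7:99014362-99063824 on the minus strand. The readthrough was at 3.75 FPKM (3.26 to 4.24) in WT and 0.000363 FPKM (0 to 0.0216) in PERK-KO. PTCD1 was at 11.0 FPKM (10.2 to 11.8) in WT and 13.3 FPKM (12.3 to 14.2) in PERK-KO, higher with limits apart. The readthrough and PTCD1 together came to 14.7 FPKM in WT and 13.3 FPKM in PERK-KO, a ratio of 0.902. ATP5J2, which was not in that sum, was at 399 FPKM (378 to 420) in WT and 302 FPKM (283 to 320) in PERK-KO, lower with limits apart. The readthrough shared 87.9% of its exonic bases with other genes on the same strand.

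TGIF2-C20orf24 joins TGIF2, a homeodomain repressor that acts in TGF-beta signalling, to C20orf24, now RAB5IF. It lies at chr20:35202957-35240960 on the plus strand. It was at 3.48 FPKM (2.27 to 4.69) in WT and 0.567 FPKM (0.0406 to 1.09) in PERK-KO, or 33 against 5 fragments, 6.14-fold lower (interval 2.19 to 18.5). The fragment numbers were 33.3 and 4.64 before rounding, and the interval leaves out the error of dividing shared reads. TGIF2 was at 19.7 FPKM (18.5 to 21.0) in WT and 25.0 FPKM (23.4 to 26.5) in PERK-KO, and C20orf24 at 124 FPKM (117 to 131) and 109 FPKM (103 to 115), with the limits of each apart. TGIF2 and the readthrough together, without C20orf24, came to 23.2 FPKM in WT and 25.6 FPKM in PERK-KO, a ratio of 1.10. Its exonic bases were shared on the same strand to 99.9%, so that little but its junction sets it apart.

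The junctions that join the genes of both readthroughs, in GRCh37, are shown with the last 15 bases of the upstream gene in lower case and the first 15 from the downstream gene in capitals. For ATP5J2-PTCD1 the junction runs from base 99057709 to 99032891 of chr7 on the minus strand, from exon 2 to exon 3 of 9. For TGIF2-C20orf24 it runs from base 35207369 to 35236118 of chr20, from exon 2 to exon 3 of 5.
ATP5J2-PTCD1 exon junction: gagcgtttcaaagagGCCCTGGAGGGACAG
TGIF2-C20orf24 exon junction: ctgtcagtgctgcaaGATGAATTTTTAGAT

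SERF1A encodes a small factor that promotes protein aggregation, and lies in a segmental duplication with its copy SERF1B. The files list the SERF1A symbol at chr5:70196490-70214357 and chr5:69321072-69338940, both on the plus strand, of which GENCODE 44 names the second SERF1B. These rows, 857550 bases apart, were the only pair of members within 1 Mb of each other. Each was at 3.14 FPKM in WT and 0.0075 FPKM in PERK-KO, with an upper limit of 0.239 FPKM. SERF1B, listed at both places too, was at 49.2 and 49.4 FPKM in WT and at 32.9 and 33.2 FPKM in PERK-KO, lower with limits apart. The sums of both symbols were 52.4 FPKM in WT and 32.9 FPKM in PERK-KO at the first place, a ratio of 0.628, and 0.632 at the second. In GENCODE 44 the 699-base spliced transcripts of SERF1A and SERF1B had 0 differences, as did their 300-base promoters. Reads from such copies cannot be told apart, so the SERF1A values are uncertain.

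**Figure D2:**
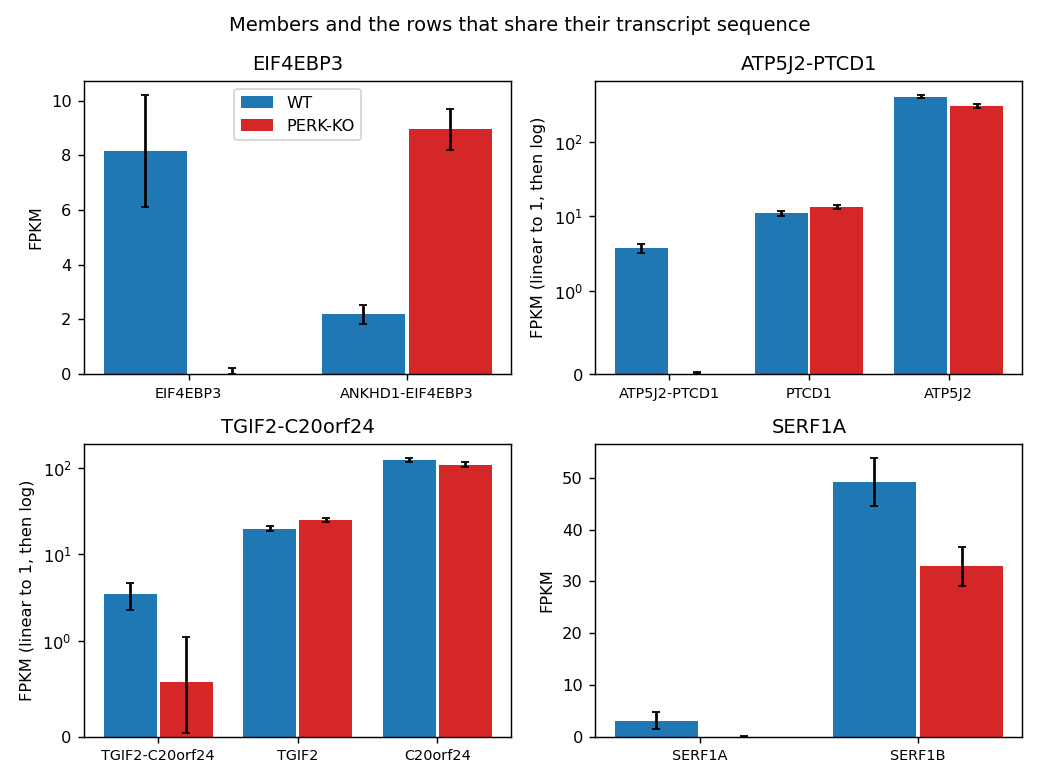
FPKM in WT (blue) and PERK-KO (red) of 4 members and of the rows that share their transcript sequence, with deposited confidence limits as black bars and 1 library per genotype. The upper right and lower left panels are linear to 1 FPKM and logarithmic above. The member is near 0 or under 1 FPKM in PERK-KO in each panel, while ANKHD1-EIF4EBP3, PTCD1 and TGIF2 were higher in PERK-KO and SERF1B was lower.

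LOC100507547 and C1orf213 are noncoding and overlap coding genes. LOC100507547, at chr6:32120579-32122142 on the minus strand, was at 4.35 FPKM (2.78 to 5.92) in WT and 0.853 FPKM (0.0519 to 1.65) in PERK-KO, 5.10-fold lower, and the WT lower limit was 1.68 times the PERK-KO upper limit. It overlaps PPT2, a lysosomal thioesterase, at 41.5 FPKM in WT and 39.0 FPKM in PERK-KO, and the readthrough PPT2-EGFL8, at 1.06 and 1.54 FPKM. Both had overlapping limits. Of its exonic bases, 72.3% are shared with other genes on either strand.

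C1orf213, or ZNF436-AS1, at chr1:23695464-23698330 on the plus strand, was at 2.50 FPKM (1.55 to 3.44) in WT and 0.986 FPKM (0.575 to 1.40) in PERK-KO. The WT lower limit was 1.11 times the PERK-KO upper limit, and it and C9orf24 were the 2 members with limits under 0.2 FPKM apart. ZNF436, the coding gene on the other strand, was at 3.85 FPKM in WT and 3.81 FPKM in PERK-KO with overlapping limits.

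By GENCODE 44, EIF4EBP3, ATP5J2-PTCD1 and TGIF2-C20orf24, 3 of 17 member rows, shared more than 50% of their exonic bases on the same strand. This held for 2.63% of the 11418 other matched rows with at least 2 FPKM in WT. The SERF1A rows count as 0% there because GENCODE 44 names 1 such gene at each place, although each overlaps a SERF1B row in the deposited values. The members had fewer exonic bases, with a median of 2214 against 5150.5 in the other rows. The part of shared exons in the members' values was not tested.

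The genes beside the members were not used by the rule. For each member the nearest row on either side that reached 1 FPKM in either library and did not overlap it was taken. These were 33 distinct names, with SMN1, listed beside both SERF1A rows, counted 1 time. SMN1 was at 29.7 FPKM in WT and 36.1 FPKM in PERK-KO at the first SERF1A place, higher with limits apart. At the second it was at 25.0 and 28.3 FPKM, with overlapping limits. Their median log2 ratio was -0.01, with a range from -0.74 to 0.69, against a median of 0.04 for all rows at 1 FPKM in both libraries. Limits were apart with PERK-KO lower in 8 of the 33, or 24.2%, and higher in 4, or 12.1%, against 18.7% and 26.1% over all rows at 1 FPKM in either library. With overlapping rows kept as neighbours, 30.3% were lower and 18.2% higher with limits apart. Their median log2 ratio was also -0.01, with a wider range from -1.39 to 2.03.

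Beside SDPR, NABP1, a single-strand DNA-binding protein, was at 3.15 FPKM in WT and 3.28 FPKM in PERK-KO, and SLC39A10, a zinc transporter, at 8.71 and 9.36 FPKM, both with overlapping limits. Beside OLFM1, the collagen gene COL5A1 was at 36.1 FPKM in WT and 24.1 FPKM in PERK-KO, and LOC100506599 at 4.52 and 2.72 FPKM, both lower with limits apart. OLFM1 was thus the member with lower neighbours on both sides, at distances of 230401 and 341535 bases. Beside EIF4EBP3, SRA1 was at 28.8 FPKM in WT and 19.8 FPKM in PERK-KO, lower with limits apart, and beside IDH1-AS1 the lipid kinase gene PIKFYVE was at 2.79 and 4.49 FPKM, higher with limits apart. Beside CGA, the connexin gene GJB7, 187832 bases away, was at 0.755 and 1.21 FPKM with overlapping limits, and SNHG5, a host gene of small nucleolar RNAs 1406765 bases away on the other side, was at 573 and 343 FPKM, lower with limits apart.

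Few members belonged to the pathway and cell type lists drawn up for this line. Of 21 lists, 18 held no member. These 18 had between 9 and 167 rows on in WT, too few at a share of 0.144% for a count of 0 to say anything about a list. AP1M2 was 1 of 21 epithelial rows on in WT, SLC27A5 was 1 of 209 solute carriers, and C1orf213, C9orf24, IDH1-AS1 and LOC100507547 were 4 of 1066 rows with open reading frame, LOC, family or antisense symbols. The shares of the last, 0.375%, and of the solute carriers, 0.478%, rest on 4 rows and 1 row.

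The list of ATF4 and unfolded protein response targets, which is not limited to genes downstream of PERK, had 52 rows on in WT. Of 54 such genes at 1 FPKM in either library, 2 were lower and 47 higher in PERK-KO with limits apart, with a median log2 ratio of 0.81. Of 34 interferon-stimulated genes at that level, 15 were lower with limits apart and 2 higher. Of 37 mesenchymal and smooth muscle genes, which include CAV1, CAV2 and PTRF, 16 were lower and 3 higher. Of 23 mitochondrial thermogenic and OXPHOS marker genes, 10 were lower and 5 higher, and of 16 keratin and cadherin family genes, 7 and 4. Of 248 solute carriers, 30 were lower and 77 higher. Counts of the other lists are not given here. Over all 14594 rows at that level, 18.7% were lower and 26.1% higher with limits apart, and no list was tested against them.

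The edges of the rule were crowded. Just outside the WT limit of 2 FPKM lay SRD5A3-AS1 at 1.93 FPKM, ALDH3A1 at 1.92, PLA2G7 at 1.91, NDUFA4L2 at 1.91 and PRR15 at 1.81 FPKM, and just inside were HSPB9 at 2.04, SMPX at 2.16, SLC27A5 at 2.22, C9orf24 at 2.23 and AP1M2 at 2.33 FPKM. In all, 55 rows had 1 to below 2 FPKM in WT and met the other conditions. Just outside the PERK-KO limit of 1 FPKM lay CCKBR at 1.03, RHEBL1 at 1.04, HLA-DMA at 1.05, COL2A1 at 1.06 and CEND1 at 1.10 FPKM, and just inside were SLC27A5 at 0.993, IDH1-AS1 at 0.992, C1orf213 at 0.986, CGA at 0.969 and AP1M2 at 0.931 FPKM. Another 7 rows, among them S100A2, PPP1R1C, SERP2, FABP6 and SPINK2, passed both levels but had overlapping limits. COL2A1, the cartilage collagen, was at 3.80 FPKM (3.37 to 4.23) in WT, so a gene with a larger ratio than several members lay outside the set.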

How the data were processed

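Poly(A) RNA of 1 WT and 1 PERK-KO culture was measured. Per the labels, the authors aligned reads to hg19 with TopHat2 2.0.13 and estimated abundance with Cufflinks 2.2.1. The deposited values are FPKM per row with lower and upper confidence limits, though the tables are named for RPKM, and no counts are given. Start positions were deposited 0-based and are given 1-based. The members and lists were chosen with earlier results of these data known. With 1 library per genotype no test was made. Limits of a pair of values were called apart when they did not overlap, and a row counted as expressed at 1 FPKM or more in either library. Ratios used no pseudocount, and none is given for a row with under 1 fragment in PERK-KO, which enters a median over all members by rank alone. Fragment numbers were taken from the width of the limits, as the square of 2 × FPKM divided by the upper limit minus FPKM. Simulated data, with limits built by the same relation, tested the rule for members and not this step. Depth beyond these fragment numbers is unknown. Exon sharing came from GENCODE 44 on GRCh37, with 96.7% of rows matched, and promoters from RefSeq on GRCh38.p14. The rule for named genes took every member, the 5 rows on each side of each limit, neighbours of the highest members and the targeted gene. It was not followed in full for neighbours. Those of SDPR, which was not among the highest members, are named, and only some of the highest members have theirs named. Neighbours are otherwise given as counts. Family genes and overlapping rows were added after the members were seen. The analysis used python 3.11.15, pandas 2.3.3 and scipy 1.17.1. Alternatives were other limits of the rule, rescaling, pseudocounts, and other choices of rows and neighbours.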

Additional observations from a re-analysis of the deposited data

How the results depend on the processing

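The number of members followed the limits of the rule. It was 72 with a WT limit of 1 FPKM, 2 with 5 FPKM, 7 with a PERK-KO limit of 0.5 FPKM and 99 with 2 FPKM, against 17. It was 10 when rows overlapping another row with a value were dropped, a choice made after seeing the data, as was a gap of at least 0.2 FPKM between the limits, which left 15. It was 24 without the condition on the limits, whether or not rows of 1 name were also summed, 24 with all symbols kept, 18 with 75th percentile rescaling, and 17 on the main chromosomes or with median rescaling. Members were 0.0218% of rows at 5 FPKM or more in WT and 0% at 10 FPKM. The members' median log2 ratio of -2.53 was -1.43 with a pseudocount of 1. For the nearest expressed neighbours with overlapping rows kept, the median log2 ratio was -0.0145, and 0.0628 with neighbours at 5 FPKM or more. It was -0.0139 for the neighbours that do not overlap the member, the set described above. The cause of these shifts was not tested. No paired analysis was possible because each genotype had 1 library, which also left no replicate to leave out.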
